A study of Mus musculus with 18 samples.

Results

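The cytosolic ribosomal protein genes are the genes of the protein subunits of the ribosome that works in the cytoplasm. They were taken from the deposited expression table by symbol: Rpl or Rps with a number and at most a short letter or copy suffix, together with Rplp0, Rplp1, Rplp2 and Rpsa. Symbols ending in -ps, and Rps3a2 and Rps3a3, were left out. The rule found 85 of the 46983 genes in the table, 51 of the large and 34 of the small subunit. It does not reach some other genes of ribosome components, such as Fau, Gnb2l1 (Rack1) and Rpl36al.

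Levels were described in lipochondrocytes, the lipid-storing cells of ear cartilage, and in adipocytes. The 18 libraries fall into 6 groups of 3. Lipochondrocytes came from the ear cartilage plate at postnatal days 8, 10, 13, 21 and 33 (P8 to P33), and adipocytes from inguinal fat at day 33. Every library, adipocytes included, carries the genotype Wnt1-Cre2;TdTomato on the C57BL/6 strain, in which Wnt1-Cre2 switches on the red fluorescent reporter in cells of the neural crest lineage. Cells of P8, P10 and P13 were released with collagenase and sorted for high TdTomato, whereas the P21, P33 and adipocyte cells were taken as the layer that floated on centrifugation, with no sort. Whether the 3 libraries of a group stem from different animals is not in the labels, and the p-values then reflect only how far these libraries vary, which may be technical.

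A ribosome is built from ribosomal RNA and one copy of most of its proteins, so the genes of these proteins are usually expressed together and are among the most abundant messages of a growing cell. Many of their mRNAs begin with a C followed by a run of pyrimidines, the 5′ terminal oligopyrimidine (TOP) tract, through which the mTORC1 pathway governs their translation. Assembly takes place in the nucleolus with the help of a large set of biogenesis factors. Some ribosomal proteins have close paralogs whose level differs between tissues.

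The annotated starts of 9 genes are printed here because the TOP tract is the feature for which the family is known and which the rule did not use. Each is 30 bases on the strand of the gene, 15 before and 15 after the annotated start, from RefSeq (GRCm38.p6), with the tract found by the search in capitals. The search was for a C followed by at least 4 bases that are each C or T, on the strand of the gene only.
Rps6, chr4:86857353-86857382, minus strand: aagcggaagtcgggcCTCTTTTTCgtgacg
Rps15a, chr7:118116133-118116162, minus strand: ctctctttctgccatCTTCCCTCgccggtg
Rps27, chr3:90213634-90213663, minus strand: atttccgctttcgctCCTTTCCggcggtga
Rpl15, chr14:18270972-18271001, minus strand: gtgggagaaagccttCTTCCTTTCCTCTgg
Rpl38, chr11:114668565-114668594, plus strand: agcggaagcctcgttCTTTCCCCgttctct
Rps27l, chr9:66946071-66946100, plus strand: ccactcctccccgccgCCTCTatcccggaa
Rpl22l1, chr3:28805493-28805522, plus strand: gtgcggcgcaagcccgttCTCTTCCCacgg
Rpl7l1, chr17:46782642-46782671, minus strand: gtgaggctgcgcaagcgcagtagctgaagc
Rpl39l, chr16:10170213-10170242, plus strand: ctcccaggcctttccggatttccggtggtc
The first 5 carry the tract at the annotated start itself. In Rps27l and Rpl22l1, both paralogs, it begins 1 and 3 bases further on, and the windows of the paralogs Rpl7l1 and Rpl39l hold none that begins within 5 bases of the start. The 9 starts do not set paralogs against the rest of the family. Rpl22, the partner of Rpl22l1, has none within 5 bases of its listed starts, nor has a further listed start of Rps27l. The table held 75 promoters of 63 of the genes. The tract lay at the annotated start in 13 of the 75 (17.3%), against 2.51% of all 32851 promoters in the table, and within 5 bases of it in 31 (41.3%), against 18.3%. A match describes these letters only, and no match says only that none begins within 5 bases of the annotated start; the Rpl39l window holds such a run further upstream.

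Depth ran from 12461965 to 27640142 total reads a library, with 73.19% to 84.44% aligned. Levels are in FPKM, that is fragments divided by gene length and by the size of the library, and they carry no counts per gene. Cartilage markers (6 of 6 found) summed to 20253 to 51464 FPKM in the 15 lipochondrocyte libraries and to 4.68 to 6.94 in the adipocyte ones, and adipocyte markers (6 of 6) to 0.68 to 22.6 and 79806 to 85267. In bulk samples fewer cells of a type and less RNA per cell cannot be told apart. Ribosomal protein genes have many near-identical copies elsewhere in the genome, and how the deposited values divide reads among copies is not given in the sources used here. The table lists 270 rows named as pseudogenes of 59 of the 85 genes, 10 of them at a higher mean than the gene itself. Rps23-ps1, for example, averaged 2779 FPKM over the libraries and Rps23 433, so the level of a single gene is uncertain where such a copy exists. Per the GENCODE M21 annotation, 83 of the 85 are protein-coding, and Rps12l1 and Rps4l are annotated as processed pseudogenes.

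Ribosomal protein genes took a falling share of the FPKM from P8 to P13, a lower one at P21 and P33, and a far smaller one in adipocytes. Their summed share was 15.9, 16.8 and 15.8% in the 3 P8 libraries, 14.6, 15.1 and 14.7% at P10 and 13.7, 12.5 and 13.8% at P13. It was 9.75, 7.86 and 6.59% at P21, 7.7, 8.01 and 10.1% at P33 and 1.55, 1.51 and 1.58% in adipocytes. All 9 sorted libraries lay above all 6 P21 and P33 libraries, and these above all 3 adipocyte libraries, while P21 and P33 overlapped. The P8, P10 and P13 libraries formed separate ranges in that order. The group mean was 16.1% ± 0.539 (SD, n = 3) at P8, 10.4 times the adipocyte mean of 1.55% ± 0.0370 (SD, n = 3). It was 8.62% ± 1.33 (SD, n = 3) at P33, 5.57 times the adipocyte mean, and the mean at P13 was 1.65 times that at P21.

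**Figure D1:**
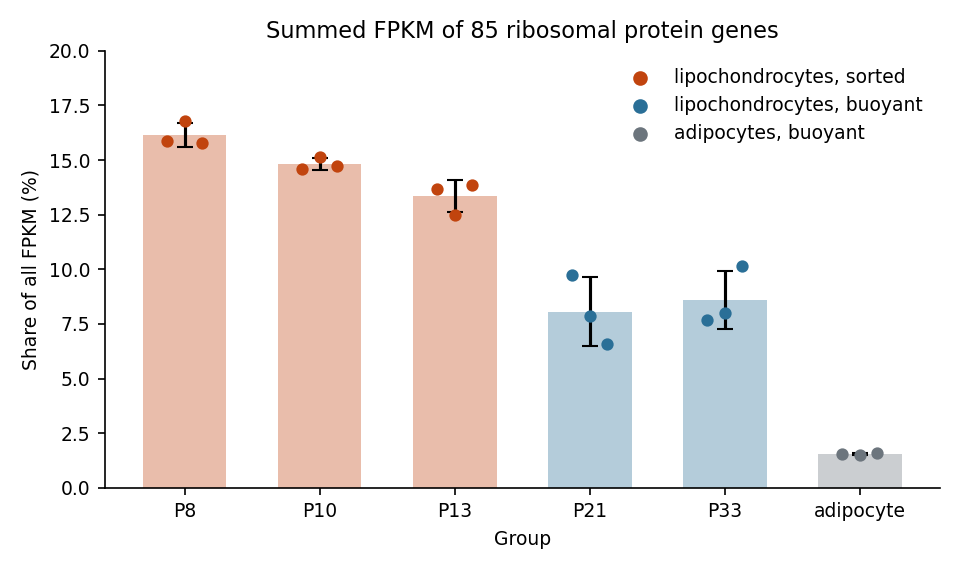
Summed FPKM of the 85 ribosomal protein genes as a percent of all FPKM (y axis) in each group (x axis). Points are libraries, bars the group mean and whiskers the SD of 3 libraries; the sorted groups lie between 12.5% and 16.8%, P21 and P33 between 6.59% and 10.1%, and adipocytes between 1.51% and 1.58%.

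Other large components of the libraries also differed between groups, though not always in the same order. Genes of mitochondrial DNA took 23.3% to 25.5% of the FPKM in adipocytes and 3.67% to 5.96% in lipochondrocytes. With them left out, the ribosomal share was 16.9% at P8, 9.07% at P33 and 2.05% in adipocytes, so that the P33 mean was 4.42 times the adipocyte mean. The single most abundant gene of a library took up to 15.2%, at P33. Adding the pseudogene rows to their genes gave 19.1% at P8, 9.85% at P33 and 1.80% in adipocytes, a ratio of 5.47 between P33 and adipocytes. Genes of the early response to dissociation (10 of 10 found, such as Fos and Jun) summed to 11197 to 20630.5 FPKM in the sorted libraries, 65.7 to 146 at P21 and P33 and 4313 to 4441 in adipocytes. What part these play in the differences below was not tested.

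Both subunits followed the same order of groups. The large-subunit genes took 8.75% ± 0.320 of the FPKM at P8, 7.35% ± 0.368 at P13, 4.75% ± 0.894 at P21, 4.95% ± 0.960 at P33 and 0.898% ± 0.0156 in adipocytes (SD, n = 3). The small-subunit genes took 7.40% ± 0.227, 5.98% ± 0.406, 3.32% ± 0.694, 3.67% ± 0.365 and 0.650% ± 0.0233 (SD, n = 3). In both, P21 and P33 differed by less than 1 SD. Of the 100 most abundant genes of a library, 29 to 35 were ribosomal protein genes at P8, 15 to 20 at P33 and 1 in each adipocyte library.

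Levels differed widely between members. Over the means of the 6 groups, Rplp1, a protein of the ribosomal stalk that recruits elongation factors, was highest at 5804 FPKM. Rpl41, which encodes the smallest ribosomal protein, followed at 5335, then Rps27 at 4665, the stalk base Rplp0 at 4662, Rpl13 at 3382 and Rps19 at 3212. Rplp0 lay above Rpl13 in 18 of 18 libraries. The other neighbours in this order were not so separated: Rplp1 lay above Rpl41 in 12, Rpl41 above Rps27 in 14, Rps27 above Rplp0 in 7 and Rpl13 above Rps19 in 9. At the other end, Rpl10l, known from testis, was listed at 0 in all 18 libraries, and Rpl3l, known from striated muscle, reached at most 0.42 FPKM. Rpl39l (2.39), Rpl5 (10.7), Rpl7l1 (16.5) and Rps4l (18.1) came next. How reads were divided among near-identical copies is not known, so this order, and low values such as that of Rpl5, are uncertain. Rpl10l and Rpl3l did not reach the minimum for testing (1 FPKM in 3 libraries), which left 83 members among 13815 genes.

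The group of highest mean was P8 for 64 of the 85 genes, P10 for 9, P13 for 5, P33 for 4, P21 for Rps27l and adipocytes for Rpl7l1, with Rpl10l at 0 throughout. The group of lowest mean was adipocytes for 81. The median over all 85 genes stood at 1458, 1395 and 1475 FPKM in the P8 libraries and at 1232, 1086 and 1296 at P13. It was 1022, 740.1 and 565 at P21, 732, 736 and 896 at P33 and 149.7, 145 and 158 in adipocytes. P21 was the most spread group, with replicate 1 near the P13 range and replicate 3 the lowest lipochondrocyte library.

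**Figure D2:**
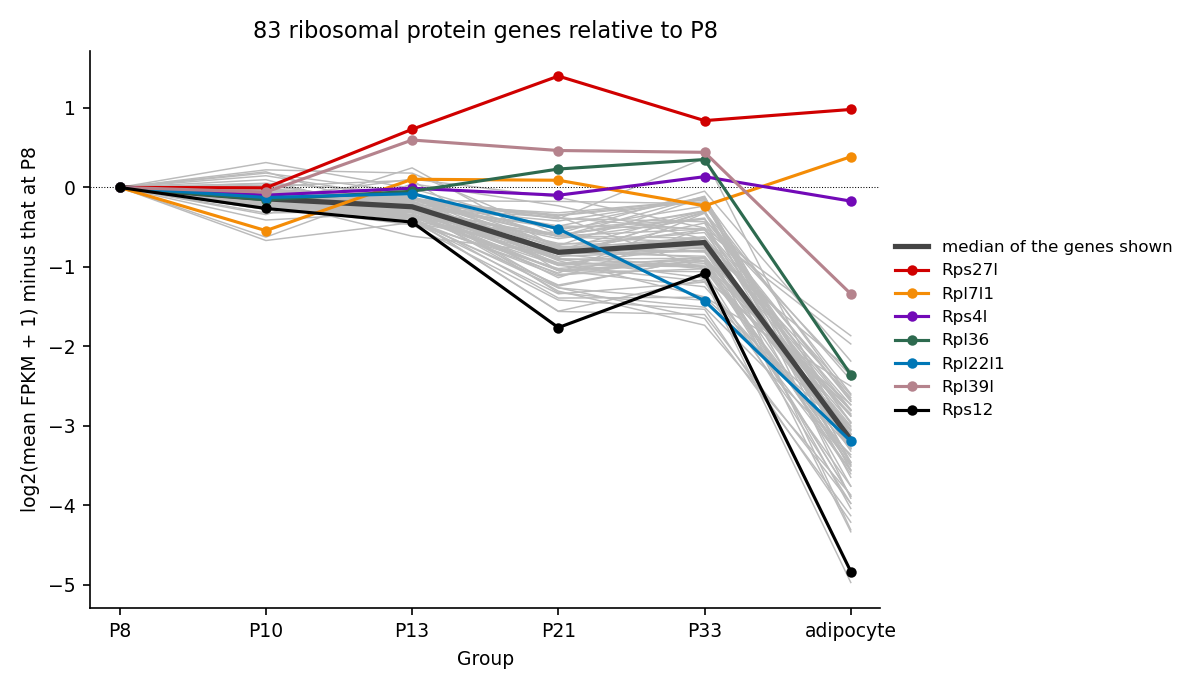
Each line is one of 83 ribosomal protein genes, as log2(mean FPKM + 1) in each group (x axis) minus that at P8 (y axis); the thick line is the median and coloured lines are named members. Most lines fall at P21 and again to adipocytes, while Rps27l lies above its P8 level from P13 on and Rpl7l1 ends in adipocytes above its own.

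P33 lipochondrocytes were compared with adipocytes of the same age, both taken as a floating layer. Ribosomal protein genes were higher in lipochondrocytes almost without exception: of the 83 tested, 80 were called higher and 1 lower, against 24% of all 13815 genes called higher and 44.5% lower. A gene is called where limma's test on log2(FPKM + 1), with the Benjamini-Hochberg adjustment over all genes, gave an adjusted p below 0.05. The members' median difference was 2.38 (log2), a ratio of 5.22, with a median standard error (SE) of 0.18, while the median over all genes was -0.28. The medians were 2.28 for the large and 2.55 for the small subunit. In 80 of the 83 all 15 lipochondrocyte libraries, of any age, lay above all 3 adipocyte libraries, which 11.8% of all genes did. The exceptions were Rpl7l1, Rps27l and Rps4l. Markers of other cells also moved with this contrast. Macrophage markers (6 of 6 found) summed to 20.6 to 39.6 FPKM at P33 and 585 to 644 in adipocytes, endothelial ones (5 of 5) to 5.60 to 8.35 and 523 to 550, erythroid ones (4 of 4) to 15.8 to 58.8 and 382 to 413, and lymphocyte ones (5 of 5) to 0.07 to 1.63 and 3.67 to 4.50. Of the fibroblast and perichondrium markers (6 of 6 found), 2 were higher at P33 and 2 lower. Their sums of 2151 to 4129 and 262 to 282 were mostly Col1a1, at 2853.5 ± 1035 (SD, n = 3) and 41.1 ± 1.37, while Dpt stood at 10.5 ± 2.12 and 54.1 ± 5.69. Skeletal muscle markers (6 of 6) summed to 21.6 to 151 and 26.8 to 32.2. Of the 5 tested, 4 were called higher at P33 and none lower. The adipocyte sums were mostly Acta1, at 42.5 ± 42.5 (SD, n = 3) at P33 and 29.1 ± 2.65 in adipocytes. Tnnt3 stood at 4.13 ± 2.42 and 0.09 ± 0.156. Acan was listed at 0 in all adipocyte libraries and Lep in all lipochondrocyte ones. The dissociation genes (10 of 10) were lower at P33, with sums of 65.7 to 84.0 FPKM there and 4313 to 4441 in adipocytes. The part of these cells and genes in the result was not tested.

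The largest difference was that of Rpl34, a large-subunit protein (ENSMUSG00000062006.12, chr3:130726831-130730398, GRCm38). It stood at 1202, 601 and 744 FPKM at P33 and 54.1, 52.8 and 58.1 in adipocytes, a log2 difference of 3.86 ± 0.23 (SE; limma, adjusted p 7.92e-10). P33 replicate 1 was the highest, and all 3 P33 libraries lay far above the adipocyte range. Rpl30, which also feeds back on the splicing of its own message in yeast, stood at 594, 600.2 and 531 and 39.8, 41.7 and 40.9 FPKM, a difference of 3.78 ± 0.24 (adjusted p 1.53e-09). Rps12, a small-subunit protein, stood at 876, 664 and 689.8 and 44.96, 52.6 and 65.2, a difference of 3.76 ± 0.42 (adjusted p 1.08e-06). Its near-identical copy Rps12l1 stood at 2182, 1598 and 1605 and 127, 108 and 145 FPKM, and how reads are divided within this pair is uncertain.

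The abundant members showed the same direction. Rplp0 stood at 4489, 4653 and 6954 FPKM at P33 and 508, 496 and 542 in adipocytes, a log2 difference of 3.35 ± 0.15 (adjusted p 3.33e-11). Rplp1 stood at 6129, 5993 and 8640.0 and 674, 637 and 716 (3.34 ± 0.17, adjusted p 1.15e-10). Rplp2, the partner of Rplp1 in the stalk, stood at 2133, 1927 and 2504 and 507, 509.5 and 505 (2.10 ± 0.20, adjusted p 2.12e-07). In all 3 stalk genes the P33 and adipocyte libraries did not overlap. Rpsa, the small-subunit protein also described as a laminin receptor, stood at 621, 618 and 1012 and 94.8, 99.3 and 115 FPKM (2.82 ± 0.19, adjusted p 2.67e-09). Rpl41 stood at 5909, 5148 and 5473 and 1089, 1055 and 1066 (2.36 ± 0.18, adjusted p 1.87e-08).

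Only Rpl7l1 was called lower in lipochondrocytes. This paralog of Rpl7 (ENSMUSG00000063888.6, chr17:46773907-46782672) stood at 13.4, 15.3 and 13.2 FPKM at P33 and 22.8, 21.5 and 21.5 in adipocytes, a log2 difference of -0.62 ± 0.10 (adjusted p 3.56e-05). All 15 lipochondrocyte libraries lay below the 3 adipocyte ones, as in 37.5% of all genes. Rps27l, a paralog of Rps27 that p53 is known to induce (ENSMUSG00000036781.13, chr9:66946086-66949516), stood at 194, 189 and 173 and 208, 188 and 218 FPKM (-0.14 ± 0.21, adjusted p 0.566), and the groups overlapped. Rps4l stood at 16.7, 15.98 and 28.8 and 16.0, 15.3 and 17.9 (0.26 ± 0.19, adjusted p 0.239), again with overlap. With size factors from the median of ratios in place of FPKM as deposited, 81 members were called higher, Rps4l among them at 0.58 (adjusted p 0.0179), and 1 lower, with 30.3% and 34.9% of all genes. That scaling moved the median of all genes from -0.28 to -0.02 here, from -0.19 to 0.0028 for P10 against P8, from 0.15 to 0 for P13 against P10 and from 0.29 to 0.0058 for P21 against P13.

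**Figure D3:**
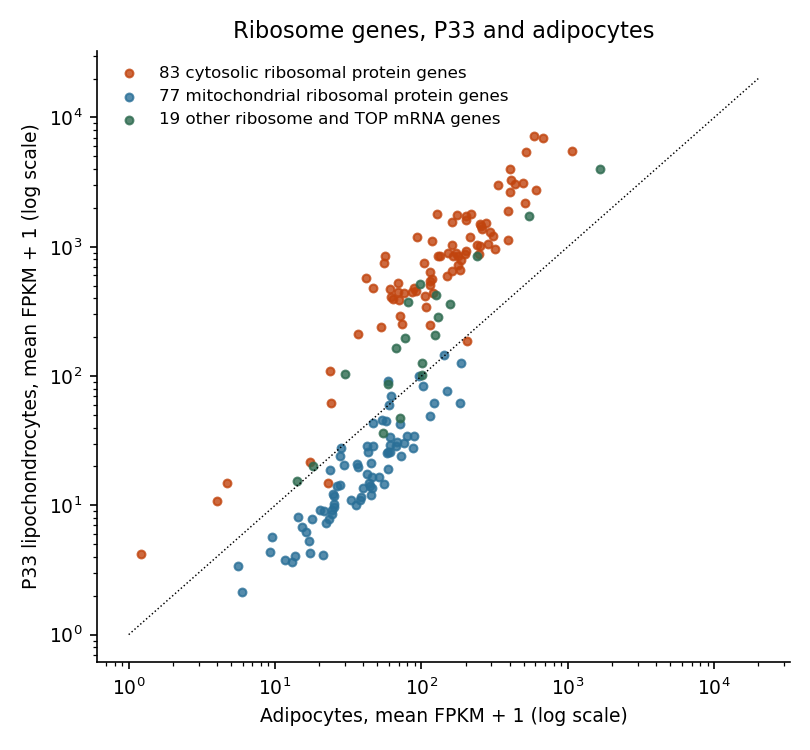
Mean FPKM + 1 in P33 lipochondrocytes (y axis, log scale) against adipocytes (x axis, log scale), 1 point a gene; the dotted line marks equal values. The tested cytosolic ribosomal protein genes lie above the line except Rpl7l1 and Rps27l, and most of the 77 mitochondrial ribosomal protein genes lie below it.

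To see which members moved apart from the rest of the family, each library was centred on its own median over the 83 members. On this scale 21 members were called higher at P33 than in adipocytes and 23 lower, against 2.65% and 91.3% of all genes, since the centring shifts every gene by the family's own difference. The members' differences ran from -3.01 to 1.47. The 4 furthest above were Rpl34 at 1.47 ± 0.20 (SE; limma, adjusted p 2.26e-06), Rps12l1 at 1.42 ± 0.26, Rpl30 at 1.40 ± 0.18 and Rps12 at 1.37 ± 0.31. The 4 furthest below were Rpl7l1 at -3.01 ± 0.20 (adjusted p 2.40e-10), Rps27l at -2.53 ± 0.30, Rps4l at -2.13 ± 0.25 and Rpl15 at -1.28 ± 0.17. Rpl15, a large-subunit protein with its TOP tract printed above, thus differed less between the groups than the family median did. It stood at 224, 220.4 and 302 FPKM at P33 and 113, 113 and 115 in adipocytes. Both levels lay below the median over all 85 genes, which was 732 to 896 FPKM at P33 and 145 to 158 in adipocytes. With the pseudogene rows added to their genes, Rpl34 was no longer called on this scale (0.26).

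Between the sorted stages few members were called. P8 and P10 were compared first: 0 of 83 members were called higher at P10 and 2 lower (limma), against 1.9% and 9.14% of all genes. At an unadjusted p below 0.05 the counts were 0 and 3, and the median difference was -0.14 against -0.19 over all genes. Rpl21, a large-subunit protein, fell from 890.2, 887 and 745 FPKM at P8 to 462, 561 and 563 at P10, with no overlap (-0.67 ± 0.18, adjusted p 0.0337). This call was lost when P10 replicate 1, 2 or 3 or P8 replicate 1 or 2 was left out (adjusted p 0.0529 to 0.141). Rpl7l1 fell from 15.4, 18.7 and 15.5 to 9.98, 10.98 and 12.2 FPKM, also with no overlap (-0.54 ± 0.10, adjusted p 0.00354). With median-of-ratios scaling neither was called, the members' median was 0.19, and Rps25 was the 1 member called higher, at 0.53 (adjusted p 0.00451), with 0 lower (1 at an unadjusted p below 0.05), against 3.6% and 0.905% of all genes. Relative to the ribosomal median, 0 members were called higher and 0 lower by limma (0 and 2 at an unadjusted p below 0.05), against 1.05% and 0.195% of all genes.

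From P10 to P13, 4 members rose and 1 fell, against 18.6% and 4.03% of all genes. In the same comparison 5 of 6 fibroblast and perichondrium markers fell, with sums of 2629 to 3640.3 FPKM at P10 and 534 to 716 at P13, and 4 of 10 dissociation genes rose, with sums of 12801 to 15892 and 17420 to 20630.5. Between P8 and P10, 3 of the 6 fibroblast markers rose, and 2 dissociation genes rose and 2 fell. The part of these in the results was not tested. Rps27l stood at 77.8, 115 and 116 FPKM at P10 and 172, 175 and 169 at P13 (0.76 ± 0.21, adjusted p 0.0168). That call was lost with median-of-ratios scaling (0.48, adjusted p 0.172) and without P10 replicate 1 (0.092) or P13 replicate 2 (0.0518). Relative to the ribosomal median Rps27l was not called (0.88 ± 0.30, adjusted p 0.0591). Rpl7l1 went from 9.98, 10.98 and 12.2 back to 16.9, 17.99 and 18.7 (0.65 ± 0.10, adjusted p 2.88e-04), and was called in every alternative run on the FPKM scale. Rpl39l, a paralog of Rpl39 known from testis, rose from 2.02, 1.83 and 2.02 to 5.06, 2.95 and 2.96 FPKM (0.63 ± 0.18, adjusted p 0.0218), at a level near the minimum for testing. In all 3 the libraries did not overlap. Rpl35a stood at 1889, 1737 and 2004 FPKM at P8, 1118, 1236 and 1294 at P10 and 2089, 1721 and 2001 at P13. Its rise from P10 (0.67 ± 0.20, adjusted p 0.0287) was 0.07 (adjusted p 0.862) with its pseudogene rows added. Rps25, a small-subunit protein used by some viral and cellular internal entry sites, fell from 1502, 1558 and 1552 to 1065, 1003 and 1079 FPKM without overlap (-0.55 ± 0.10, adjusted p 0.0011), and was called in every alternative run on the FPKM scale. Relative to the ribosomal median it was not called (-0.43 ± 0.17, adjusted p 0.106). The count of rises was 1 without P10 replicate 1 and 2 without P10 replicate 2 or P13 replicate 1. With median-of-ratios scaling 1 member rose (Rpl7l1) and 12 fell, Rps25 the most, against 8.14% and 8.56% of all genes. Relative to the ribosomal median 4 members rose, Rpl35a, Rpl7l1, Rpl39l and Rps3a1, against 11.9% of all genes, and 0 fell (2 at an unadjusted p below 0.05), against 1.82%; without any 1 of the 3 P10 libraries or without P13 replicate 2 the 4 became 1.

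Over the whole sorted span, from P8 to P13, the members' median difference was -0.25, against -0.02 for all genes, and 74 of the 83 differences were below 0. One member was called, Rps27l as higher, against 2.69% of all genes called higher and 1.52% lower. It stood at 108, 131 and 71.0 FPKM at P8 and 172, 175 and 169 at P13, without overlap, and its difference of 0.78 ± 0.21 had an adjusted p of 0.04997. Leaving out any P13 library, or P8 replicate 1 or 3, gave 0.0898 to 0.194. No member was called lower (0 by limma, 13 at an unadjusted p below 0.05), although without P8 replicate 3 there were 2. Median-of-ratios scaling gave 2 rises, Rps27l and Rpl39l, and 0 falls (6 at an unadjusted p below 0.05), against 3.87% and 1.79% of all genes. Relative to the ribosomal median there were 0 rises and 0 falls (limma; 4 and 0 at an unadjusted p below 0.05), against 2.63% and 0.203%. P10, P13 and P8 are shared between these 3 comparisons.

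**Figure D4:**
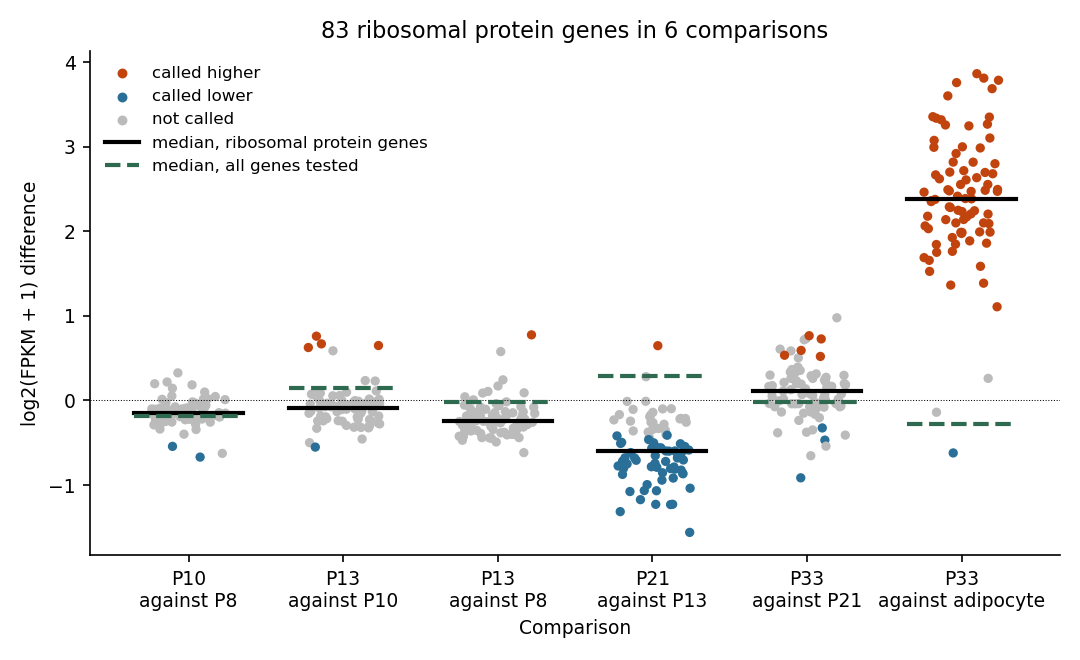
Difference in log2(FPKM + 1) (y axis) of each of the 83 ribosomal protein genes in the 6 comparisons (x axis), coloured by call; solid lines are the members' medians and dashed lines those of all genes tested. Differences lie near 0 within the sorted stages, mostly below 0 for P21 against P13 and mostly above 1 for P33 against adipocytes.

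The lower levels at P21 than at P13 reached most of the family. Of the 83 members, 56 fell and 1 rose, against 7.04% of all genes that fell and 36% that rose. The median difference was -0.60, a ratio of 0.661, against a median of 0.29 over all genes. P13 cells were sorted and P21 cells were a buoyant layer, so age and isolation cannot be told apart here. The dissociation genes fell in the same comparison (10 of 10), and at P21 markers of skeletal muscle (6 of 6 found) summed to 62.7 to 375 FPKM and of erythroid cells (4 of 4) to 31.2 to 134, above their P13 ranges of 19.6 to 31.7 and 2.15 to 3.43. Macrophage markers (6 of 6; 4 higher) summed to 2.22 to 2.86 at P13 and 11.6 to 18.1 at P21, adipocyte markers (6 of 6; 5 higher) to 1.96 to 2.26 and 15.6 to 22.6, and cartilage markers (6 of 6; 2 lower) to 42320 to 46766 and 25204 to 26257. Of the fibroblast and perichondrium markers (6 of 6) 2 were higher and 2 lower. Their sums of 534 to 716 and 2210.3 to 4565 were mostly Col1a1, at 512 ± 77.9 (SD, n = 3) and 3171 ± 1166, while Postn stood at 102 ± 17.7 and 38.5 ± 11.7. The part of these cells was not tested. Without P21 replicate 3, the lipochondrocyte library of lowest ribosomal share, 35 members fell, and with only the libraries of both groups in the fit, 25. Median-of-ratios scaling gave 78 falls and 0 rises (0 at an unadjusted p below 0.05), with 16% of all genes called in each direction, and a median of -1.05. In 31 of the 83 members all 9 sorted libraries lay above all 6 P21 and P33 libraries, as in 4.6% of all genes, and in 0 below, as in 22.2%.

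Rps12 had the largest fall, from 1693, 793 and 1005 FPKM at P13 to 887, 315 and 188 at P21 (-1.56 ± 0.42, adjusted p 0.0078). P21 replicate 1 overlapped the P13 libraries, and the remaining P21 libraries lay far below. Rps12l1 followed with 4019, 1996 and 3179 and 2403, 963 and 715 FPKM (-1.31 ± 0.36, adjusted p 0.00855). Rpl12, a protein at the base of the stalk, fell from 27.3, 27.6 and 32.1 to 23.9, 12.2 and 5.34 (-1.23 ± 0.35, adjusted p 0.0116), without overlap. These calls were lost with only the libraries of both groups in the fit (adjusted p 0.101 to 0.104). Rps15a, a small-subunit protein whose start carries the TOP tract, fell from 2172, 1714 and 2020.3 to 1243, 801 and 587 FPKM (-1.23 ± 0.20, adjusted p 2.38e-04), and was called in every alternative run on the FPKM scale. Rpl10, which joins the large subunit late in its assembly, fell from 1219, 1296 and 1655 to 828, 660.4 and 552 (-1.04 ± 0.16, adjusted p 1.11e-04). The libraries of neither gene overlapped.

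The 1 rise at P21 was Rps27l, from 172, 175 and 169 to 209, 309 and 305 FPKM (0.65 ± 0.21, adjusted p 0.0208), without overlap. The direction held under median-of-ratios scaling, but the difference was 0.20 (adjusted p 0.559), and leaving out P13 replicate 1 or 3 or P21 replicate 2 or 3 also ended the call (0.05004 to 0.082). Relative to the ribosomal median 16 members rose and 7 fell, against 81% and 1.75% of all genes. The 4 largest rises were Rps27l (1.33 ± 0.30, adjusted p 8.95e-04), Rpl36 (0.96 ± 0.25), Rpl32 (0.67 ± 0.19) and Rpl7l1 (0.67 ± 0.20). Rpl36, a large-subunit protein, stood at 1878, 1984 and 2124 FPKM at P13 and 2318, 2507 and 2442 at P21, with every P21 library above every P13 one (adjusted p of its FPKM difference 0.352). Rpl32 stood at 3272, 3396 and 3426 and 3471, 3387 and 3171, and the groups overlapped. The 4 largest falls were Rps12 (-0.88 ± 0.31), Rps12l1 (-0.63 ± 0.26), Rps15a (-0.55 ± 0.16) and Rpl7a (-0.55 ± 0.16). Without 1 library the count of rises ranged from 8 (P21 replicate 3) to 27 (P21 replicate 1), with 9 without P13 replicate 1 or 3 and 10 without P21 replicate 2. The count of falls was 2 without P21 replicate 2, 3 without P13 replicate 1 and 4 without P13 or P21 replicate 3.

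P21 and P33 share their isolation. Here 5 members rose and 3 fell, against 2.87% and 7.17% of all genes, and the median was 0.11 against -0.02 over all genes. Markers moved here too: 3 of 6 macrophage markers were higher at P33, 3 of 6 cartilage and 3 of 6 adipocyte markers lower, 1 fibroblast marker higher and 2 lower of 6, 1 of 5 tested skeletal muscle markers lower and 2 of 10 dissociation genes lower. Macrophage markers summed to 11.6 to 18.1 FPKM at P21 and 20.6 to 39.6 at P33, and cartilage markers to 25204 to 26257 and 20253 to 22562. The cartilage sum joins opposite moves, with 0 of its 6 genes called higher. Eln stood at 12004 ± 2056 (SD, n = 3) at P21 and 2396 ± 901 at P33, and Cytl1 at 12356 ± 2728 and 18537 ± 2153. The part of these markers was not tested. Rps27, a small-subunit protein whose start is printed above, rose from 3882, 4309.5 and 4451 to 7548, 7118 and 6804 FPKM (0.77 ± 0.17, adjusted p 0.00818), above its level in all 3 P8 libraries. Rpsa rose from 523, 433 and 376 to 621, 618 and 1012 (0.73 ± 0.19, adjusted p 0.023) and Rps29 from 2487, 2096 and 1725 to 2960.4, 3298 and 3152 (0.59 ± 0.16, adjusted p 0.0309). Rps25 rose from 984, 859.5 and 845 to 1292, 1410.3 and 1193 (0.53 ± 0.10, adjusted p 0.00272). In all 4 the libraries did not overlap. The fifth rise was Rps27a, described below.

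Rpl22l1, a paralog of Rpl22, fell from 525, 503 and 383 FPKM at P21 to 265, 293 and 193 at P33 (-0.91 ± 0.21, adjusted p 0.0114). Rpl15 fell from 363, 349.9 and 312 to 224, 220.4 and 302 (-0.47 ± 0.12, adjusted p 0.0257). Rpl7l1 fell from 17.2, 17.9 and 17.9 to 13.4, 15.3 and 13.2 (-0.32 ± 0.10, adjusted p 0.0449). None of the 3 overlapped between the groups. These counts depend on single libraries: without P21 replicate 1 there were 14 rises and 1 fall, without replicate 2 there were 2 and 1, without replicate 3 there were 2 and 5, without any 1 of the P33 libraries 3 rises, and without P33 replicate 1 there was 1 fall. The median turned to -0.05 without P21 replicate 3. With median-of-ratios scaling there were 5 rises and 1 fall, against 2.99% and 5.95% of all genes, with every library scaled to the same total 2 and 5, and with only the libraries of both groups in the fit 0 and 0 (limma), against 11 and 8 at an unadjusted p below 0.05 in the fit of all libraries. Relative to the ribosomal median, Rps21 (0.64 ± 0.16, adjusted p 0.0343) and Rpsa (0.64 ± 0.16) rose and Rpl22l1 fell (-1.01 ± 0.25, adjusted p 0.0298), against 0.572% and 3.15% of all genes. Without 1 library those 2 rises became 0 (P21 replicate 2), 1 (P33 replicate 1 or 2) or 6 (P21 replicate 1), and the 1 fall became 9 without P21 replicate 1 and 0 without P21 replicate 2 or 3 or P33 replicate 1 or 3.

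The copies Rps27l, Rpl7l1 and Rps4l, the last annotated as a processed pseudogene, made up a larger part of their pair in adipocytes. The share of Rps27l in the summed FPKM of Rps27l and Rps27 was 1.76, 1.95 and 1.73% at P8, 3.04, 3.603 and 3.39% at P13, 5.11, 6.69 and 6.404% at P21 and 2.51, 2.59 and 2.48% at P33. In adipocytes it was 26.1, 24.98 and 26.2%, above every lipochondrocyte library. Rps27 itself was 12.1 times higher at P33 than in adipocytes (3.60 ± 0.17, adjusted p 3.14e-11), while the difference of Rps27l was -0.14 ± 0.21 (adjusted p 0.566). The share of Rpl7l1 with Rpl7 was 0.908, 1.07 and 0.866% at P8, 1.498, 2.24 and 2.89% at P21, 1.97, 2.18 and 1.56% at P33 and 11.6, 11.2 and 10.4% in adipocytes. That of Rps4l with Rps4x was 0.629, 0.663 and 0.562% at P8, 1.63, 1.54 and 2.59% at P33 and 9.17, 8.35 and 10.2% in adipocytes. Both shares were again highest in the 3 adipocyte libraries. Rps4l itself averaged 18.6 FPKM at P8, 20.5 at P33 and 16.4 in adipocytes, and Rps4x 3010, 1039 and 161.

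Rpl22l1 outweighed its partner, as did the pseudogene copy Rps12l1, whose FPKM lay above that of Rps12 in all 18 libraries. Rpl22l1 took 62.1, 67.01 and 63.7% of the pair at P8, 62.6, 74.1 and 73.7% at P21, 53.02, 55.1 and 44.03% at P33 and 58.2, 59.6 and 56.6% in adipocytes, so it was the larger part in all libraries but P33 replicate 3. Rpl22 stood at 313, 176 and 136 FPKM at P21 and 235, 239 and 246 at P33, where the groups overlapped. The P33 share lay below every P21 library. Rpl39l took 0.199% to 1.38% of its pair with Rpl39 over all 18 libraries, and Rpl3l at most 0.173% of its pair with Rpl3. These shares have no test, and they carry the same uncertainty about copies as the levels.

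**Figure D5:**
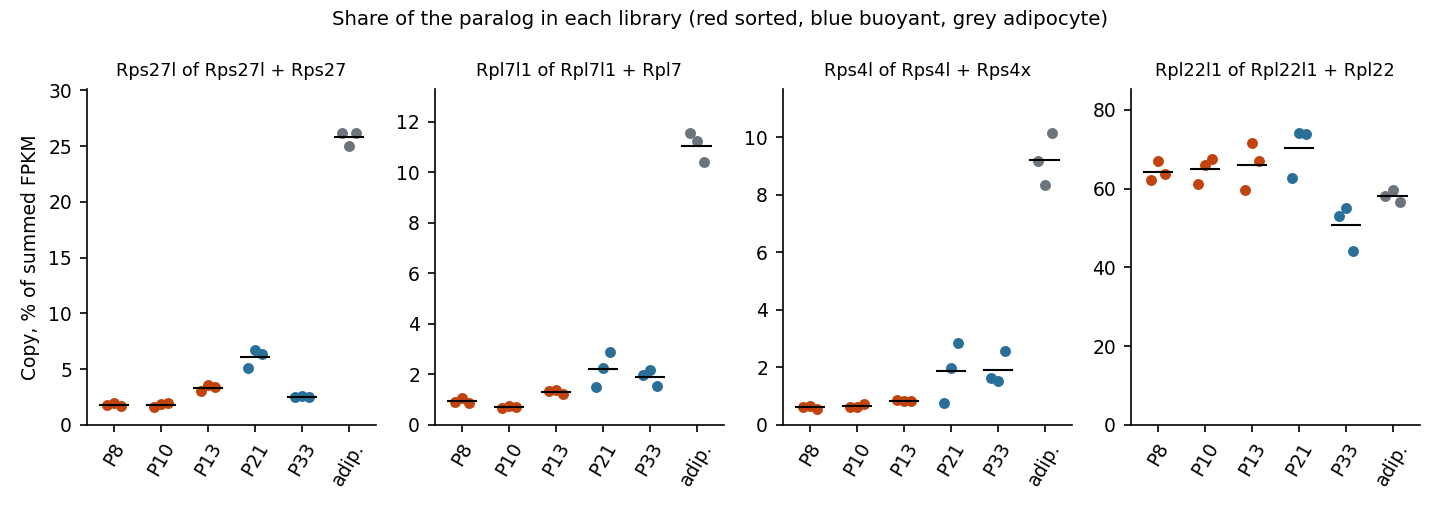
Percent of the summed FPKM of a paralog pair that belongs to the paralog copy (y axis) in each group (x axis); points are libraries and lines the mean of 3. Rps27l, Rpl7l1 and Rps4l (annotated as a processed pseudogene) take their largest shares in the 3 adipocyte libraries, while Rpl22l1 is lowest at P33.

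Members with well-known roles beyond their place in the ribosome showed the general pattern with differences in size. Rps6, the substrate of a kinase downstream of mTORC1, stood at 1236, 1395 and 1332 FPKM at P8, 582, 607 and 806 at P33 and 188, 165 and 194 in adipocytes. Its P33 level exceeded the adipocyte one by 1.85 ± 0.18 (adjusted p 2.17e-07) and it fell from P13 to P21 (-0.68 ± 0.18, adjusted p 0.00688). Rps27a, made as a fusion with ubiquitin, stood at 1356, 1082 and 869 at P21, 1622, 1491 and 1555 at P33 and 153, 170.0 and 160.0 in adipocytes. It was higher at P33 than in adipocytes (3.27 ± 0.15, adjusted p 2.49e-11), and its rise from P21 (0.52 ± 0.15, adjusted p 0.0371) was 0.30 (0.204) with pseudogene rows added. The call was also lost without P21 replicate 2 or 3 or any 1 of the P33 libraries (0.0548 to 0.139).

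Rpl5 and Rpl11, which as free proteins bind the p53 regulator Mdm2, were listed at very different levels. These levels carry the uncertainty about the division of reads among copies. Rpl5 stood at 13.4, 10.7 and 20.02 FPKM at P8, 9.71, 13.5 and 6.31 at P33 and 2.5, 3.36 and 3.17 in adipocytes, and Rpl11 at 748, 786 and 753, 481, 533 and 679 and 109.7, 125 and 116. Both were higher at P33 than in adipocytes (1.39 ± 0.22, adjusted p 5.54e-05, and 2.25 ± 0.15, adjusted p 2.85e-09), without overlap. Neither was called between P13 and P21 (adjusted p 0.651 and 0.185). Rps19, the gene most often mutated in Diamond-Blackfan anaemia, stood at 5402, 5480.3 and 4289 FPKM at P8, 3996, 3379 and 3754 at P13, 2522, 2553 and 2399 at P21 and 573, 616 and 638 in adipocytes. It fell from P13 to P21 (-0.57 ± 0.12, adjusted p 0.00176), with every P21 library below every P13 one. Rpl38, which in the mouse embryo is needed for translation of Hox mRNAs, stood at 913, 946 and 926 at P8, 676, 498 and 391 at P21, 529, 526 and 736 at P33 and 138, 156 and 148 in adipocytes. It fell from P13 to P21 (-0.81 ± 0.17, adjusted p 0.0018) and was higher at P33 than in adipocytes (1.99 ± 0.17, adjusted p 6.75e-08).

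Members were also set apart by the letters at their annotated start. For P33 against adipocytes the median was 2.41 in the 13 genes with the tract at the start, 2.43 in 16 with it within 5 bases only, 2.17 in 32 without it and 2.64 in 22 with no entry in the promoter table. For P21 against P13 the medians were -0.57, -0.61, -0.58 and -0.61. These are descriptions with no test. The members' messages are short, with a median annotated transcript of 637 bases against 1471.5 in all protein-coding genes, and they lie on 19 chromosomes, 15 of them on chromosome 7.

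The 5 genes outside the family whose log2(FPKM + 1) over the 18 libraries was most like the members' median were Gm7536 (Pearson r 0.996), Rpl28-ps1 (0.996), Gm15501 (0.995), Vasn (0.993) and Rpl10a-ps1 (0.993). Rpl28-ps1 and Rpl10a-ps1 are rows named as pseudogenes of members. These r values are a description over libraries that differ in age, isolation and tissue. Within the family, the members least like the median were Rpl7l1 (-0.64), Rps27l (-0.52), Rps4l (0.22), Rpl39l (0.77) and Rpl36 (0.86), the same measure over the same libraries.

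Other parts of the translation machinery were counted in the same fit. Of 19 ribosome and TOP mRNA genes outside the rule, 14 were higher at P33 than in adipocytes and 1 lower, with a median of 1.21, against 24% and 44.5% of all genes. Fau, whose product yields a small-subunit protein, stood at 516 ± 84.4 FPKM (SD, n = 3) at P33 and 96.7 ± 8.23 in adipocytes (2.39 ± 0.13, limma, adjusted p 2.97e-10). Gnb2l1 (Rack1), the scaffold on the small subunit, stood at 372 ± 75.2 and 79.7 ± 4.36 (2.19 ± 0.21). From P13 to P21, 12 of the 19 fell and 1 rose, with a median of -0.59, against 7.04% and 36% of all genes. Eef1g, a subunit of the elongation factor complex, fell (-1.31 ± 0.17, adjusted p 2.71e-05), and Eef1d of the same complex rose (1.36 ± 0.14, adjusted p 2.74e-06). From P21 to P33, 5 of the 19 fell and 0 rose (limma, 0 at an unadjusted p below 0.05), against 7.17% and 2.87% of all genes. Their median was -0.18, whereas that of the 83 members was 0.11. Median-of-ratios scaling gave 3 falls (median -0.13), against 5.95% of all genes.

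The 77 genes of mitochondrial ribosomal proteins, which serve the ribosome inside mitochondria, differed in the other direction: 64 were lower at P33 than in adipocytes and 1 higher, with a median of -1.21, against 44.5% and 24% of all genes. From P10 to P13, 50 of them rose (median 0.51), against 18.6% of all genes, and 16 with median-of-ratios scaling, against 8.14%. From P13 to P21, 43 rose and 1 fell (median 0.44), against 36% and 7.04% of all genes. Median-of-ratios scaling gave 5 and 6 there (median 0.03), against 16% in each direction. Mrps6 stood out, from 74.3 ± 7.04 FPKM (SD, n = 3) at P13 to 331 ± 30.03 at P21 (2.14 ± 0.14, adjusted p 3.60e-08). Of 30 ribosome biogenesis factors, 17 were lower at P33 than in adipocytes and 2 higher (median -0.55), against 44.5% and 24% of all genes. Median-of-ratios scaling gave 12 and 5 (median -0.23), against 34.9% and 30.3%. From P8 to P10, 10 fell, against 9.14% of all genes. Median-of-ratios scaling called 1 higher and 0 lower (4 lower at an unadjusted p below 0.05), against 3.6% and 0.905% of all genes. Nol6, a nucleolar factor, stood at 2.37 ± 0.412 FPKM at P33 and 11.8 ± 0.346 in adipocytes (SD, n = 3). Its log2 difference was -1.93 ± 0.13 (limma, adjusted p 3.64e-09). From P13 to P21, 5 biogenesis factors fell and 1 rose, against 7.04% and 36% of all genes. With median-of-ratios scaling 17 fell and 0 rose (limma, 0 at an unadjusted p below 0.05), against 16% in each direction.

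Of 32 translation initiation factors, 4 were higher and 18 lower at P33 than in adipocytes (median -0.56), against 24% and 44.5% of all genes. Median-of-ratios scaling gave 7 and 14 (median -0.23), against 30.3% and 34.9%. Of the same factors 6 rose and 5 fell from P13 to P21, against 36% and 7.04% of all genes. Median-of-ratios scaling gave 0 and 14 (0 rises at an unadjusted p below 0.05), against 16% in each direction. From P21 to P33, 5 fell, against 7.17% of all genes. Eif2s1, a subunit of the factor that brings in the initiator tRNA, stood at 3.69 ± 0.647 FPKM (SD, n = 3) at P33 and 21.2 ± 0.698 in adipocytes (-2.25 ± 0.11, adjusted p 6.02e-11). Of 14 genes of RNA polymerase I and its factors, which transcribe ribosomal RNA, 5 were higher and 6 lower at P33 than in adipocytes (median -0.01). Of all genes, 24% were higher and 44.5% lower. Rrn3 was the lowest (-1.91 ± 0.22, limma, adjusted p 1.76e-06). From P13 to P21, 1 of the 14 rose and 1 fell, against 36% and 7.04% of all genes. Median-of-ratios scaling gave 0 and 6 (1 rise at an unadjusted p below 0.05), against 16% in each direction. Of 15 tested genes of mTORC1 and its control of TOP mRNAs, 1 was higher and 9 lower at P33 than in adipocytes (median -0.46). Of all genes, 24% were higher and 44.5% lower. With median-of-ratios scaling the counts were 2 and 6, against 30.3% and 34.9% of all genes. Eif4ebp1, a repressor of cap-dependent initiation that mTORC1 inactivates, stood at 23.7 ± 9.83 FPKM (SD, n = 3) at P33 and 436 ± 25.2 in adipocytes (-4.21 ± 0.21, adjusted p 8.26e-11). Myc, a transcription factor that drives ribosome production, rose from 19.6 ± 3.87 FPKM (SD, n = 3) at P8 to 68.1 ± 8.22 at P10 (1.76 ± 0.17, adjusted p 2.22e-05), and fell to 18.5 ± 3.11 at P13 (-1.83 ± 0.17) and 3.11 ± 0.477 at P21 (-2.24 ± 0.17).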

How the data were processed

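RNA was sequenced from 18 libraries, 3 in each of 6 groups, and the authors deposited 1 table of FPKM per gene for all of them, to 2 decimals. The submitters' processing notes name the aligner STAR 2.4.2a and the build mm10; for the tool that made the FPKM values, its annotation and how it treats reads that match several copies, a name is not given in the sources used here. The deposited read-quality table gives the count of total and paired reads and, as percent, the paired reads and the alignment rate. Of the gene IDs, 98.9% matched GENCODE M21 (GRCm38), from which positions were taken.

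The 13815 genes that reached 1 FPKM in 3 or more libraries (83 of the 85 members) were fitted on log2(FPKM + 1) with limma 3.58.1 (R 4.3.3; trend, 6 group means, 12 residual degrees of freedom). Tests were two-sided, adjusted by Benjamini-Hochberg within each of 6 comparisons and called below 0.05. Fold changes on this scale understate those of low genes. A further fit subtracted each library's median over the members. Alternatives were other scalings (median of ratios, an equal total per library as in TPM, the same without mitochondrial DNA genes), pseudocount 0.1, no filter or one at 5 FPKM, pseudogene rows added to their genes, fits of 2 groups only, a replicate block and leaving out each library. FPKM gives no counts per gene, so no count model was used and counting error is unknown. The fit was tested on simulated data. Figures used Python 3.11.15 and matplotlib 3.10.9.

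The members and lists were chosen with earlier results of these data known. Named are the paralog pairs, stalk genes and Rpsa; the 6 highest and 6 lowest members; in each comparison and on each scale the 4 largest called rises and falls; 8 members with textbook roles; called genes of each list with large changes; and the 5 most alike genes. Rps21, Rps3a1 and Rpl36 were named by the relative scale.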

Additional observations from a re-analysis of the deposited data

How the results depend on the processing

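With 1 library left out at a time, 80 members stayed higher and 1 lower at P33 than in adipocytes in each such fit, and the median ranged from 2.28 to 2.43; relative to the ribosomal median 18 to 22 were higher and 17 to 23 lower. For P10 against P8, 1 to 2 fell and the median ranged from -0.19 to -0.08. For P13 against P10, 1 to 4 rose and 1 fell, the median from -0.14 to -0.04, with 1 to 3 rises relative to the ribosomal median. For P13 against P8, 0 to 1 rose and 0 to 2 fell, the median from -0.28 to -0.20. For P21 against P13, 0 to 1 rose and 35 to 61 fell, the median from -0.78 to -0.46, with 8 to 27 rises and 2 to 8 falls relative to the ribosomal median. For P33 against P21, 2 to 14 rose and 1 to 5 fell, the median from -0.053 (reversed, without P21 replicate 3) to 0.27, with 0 to 6 rises and 0 to 9 falls relative to the ribosomal median. The causes of these and the following changes were not tested.

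Median-of-ratios scaling gave, for P33 against adipocytes, a median of 2.73; for P10 against P8, 1 rise, 0 falls and a reversed median of 0.19; for P13 against P10, 1 rise, 12 falls and a median of -0.37; for P13 against P8, 2 rises; for P21 against P13, 0 rises and a median of -1.05; and for P33 against P21, 1 fall. Scaling every library to the same total gave a median of 2.21 for P33 against adipocytes, 2 falls for P13 against P10, 3 falls for P13 against P8, 0 rises for P21 against P13, and 2 rises and 5 falls for P33 against P21. Without mitochondrial DNA genes there were 2 falls and a median of 1.88 for P33 against adipocytes, 2 falls for P13 against P10, 2 for P13 against P8, 0 rises for P21 against P13, and 3 rises and 5 falls for P33 against P21, and the shares were 16.9% at P8, 15.5% at P10 and 2.05% in adipocytes.

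With no filter there was 1 fall for P10 against P8, 0 rises for P13 against P8, 2 rises for P21 against P13 and 3 for P33 against P21; relative to the ribosomal median, 2 rises for P13 against P10 and 0 rises and 0 falls for P33 against P21. The filter at 5 FPKM gave 3 falls for P13 against P10, 3 for P13 against P8 and, relative to the ribosomal median, 4 rises and 3 falls for P33 against P21. With only 2 groups in the fit there were 0 falls for P10 against P8, 3 for P13 against P10, 0 rises for P13 against P8, 25 falls for P21 against P13, and 0 rises and 0 falls for P33 against P21; relative to the ribosomal median, 2 falls for P13 against P10, 3 rises and 0 falls for P21 against P13, and 0 and 0 for P33 against P21. Adding pseudogene rows gave shares of 19.1% at P8, 17.6% at P10, 15.7% at P13 and 1.80% in adipocytes; relative to the ribosomal median, 1 rise for P13 against P8, 4 falls for P21 against P13 and 5 for P33 against P21, and Rpl38 turned to 0.10 for P33 against adipocytes. With pseudocount 0.1, Rpl39l turned to 0.98 for P33 against adipocytes on that scale. The share of promoters with the tract went from 17.3% to 41.3% within 5 bases of the start.

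Replicates carry the same numbers in each group, but same-numbered samples did not deviate together (correlations of -0.168 to 0.206), so the numbers do not show a pairing. With the replicate block, 0 members rose for P13 against P8, and relative to the ribosomal median 2 fell for P33 against P21; 55 fell for P21 against P13 in place of 56. Of single-gene results in the other alternatives, 2122 kept their direction and side of the threshold, 80 lost a call, 46 gained one and 2 reversed. FPKM carries no counts, so what depth limits is unknown.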
